A study of Homo sapiens with 2 samples.

Results

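Isolated Runx2 peaks are the binding regions of this list that lie far from any other. They were taken from the peaks on chromosomes 1 to 22 by position alone: a peak was a member when the peak-free gap to its neighbour exceeded 1000000 bases (1 Mb) on both sides. A gap ran from the end of 1 peak to the start of the next, and the first and last peak of each chromosome were left out because they have a neighbour on only 1 side. The rule gave 301 isolated peaks of 1603 peaks in all. Of the 1443 autosomal peaks, 1399 had 2 neighbours, so isolated peaks made up 21.5% of those that could qualify. The gaps chose the members, and every value below is also a position or a gap, so the values are descriptions and carry no test.

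The study mapped Runx2 by chromatin immunoprecipitation followed by sequencing (ChIP-seq) in C4-2B, an established human prostate cancer line derived from LNCaP cells. The Runx2 library was made with an antibody (Sigma) against the Flag tag, a short peptide fused to Runx2, so the peaks are those of the tagged protein. The other library was input DNA from the same line, which was sequenced without immunoprecipitation. Each group had 1 library, so nothing is known of the spread between cultures, and the labels give neither a treatment nor the way in which the tagged protein was introduced.

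Runx2 is a DNA-binding protein of the Runt family that acts together with the partner subunit CBFB, which strengthens its hold on DNA. It is best known as the master regulator of bone-forming osteoblasts, and it is studied in prostate cancer because tumours of this origin often spread to bone. Transcription factors of this kind bind at promoters and at distal enhancers, and enhancers of 1 gene often lie in groups. A peak with no other within 1 Mb is a single mapped site in a long stretch without another. The list itself was sparse, with 0.534 peaks per Mb of span, from first to last peak, over all autosomes. Of the other peaks with 2 neighbours, 42.3% had another within 100 kb. Which genes lie at these peaks, and which bases lie under them, was not analysed here, since no genome or annotation of build hg18 was used.

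All 301 isolated peaks were 500 bases wide with a deposited score of 0, as were the other peaks, so none could be ranked by strength. Together they covered 150.5 kb. Depth was unknown, and a gap says only that no peak of the list lay there.

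Isolated peaks ranged from those just past the limit to a few with many megabases on either side. The distance to the nearest neighbour ran from 1.0 to 11.1 Mb, with a median of 1.93 Mb and a middle range (quartiles) of 1.38 to 3.12 Mb. It was at most 2 Mb for 156 isolated peaks, above 2 and up to 3 Mb for 65, above 3 and up to 5 Mb for 41, above 5 and up to 10 Mb for 37, and above 10 Mb for 2. On the farther side the median gap was 4.81 Mb and the longest 34.9 Mb. Among the other 1098 peaks with 2 neighbours the nearest neighbour lay at a median of 142 kb. Of all 1399, 555 peaks (39.7%) had a gap above 1 Mb on 1 side and 543 (38.8%) on neither.

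The empty stretches on the 2 sides of an isolated peak were often unequal. The farther gap was a median of 1.98 times the nearer one. It was at most 1.5 times the nearer gap for 108 isolated peaks (35.9%) and over 5 times for 34 (11.3%). Some isolated peaks therefore stood near the middle of their empty stretch, and others at its edge.

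**Figure D1:**
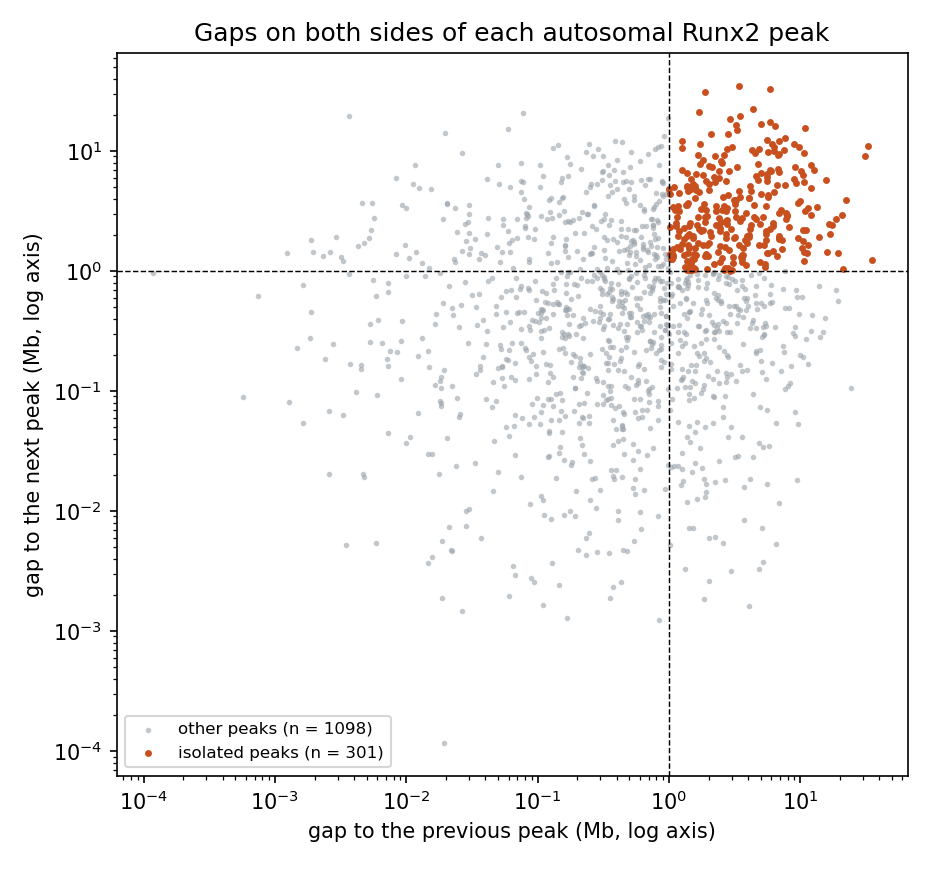
Gap to the previous peak (horizontal, Mb, log axis) against gap to the next peak (vertical, Mb, log axis) for the 1399 autosomal peaks with 2 neighbours, 1 point per peak; dashed lines mark the limit of 1 Mb. The 301 isolated peaks fill the upper right corner by the rule, with gaps of up to 34.9 Mb.

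The peak farthest from its nearest neighbour lay on chromosome 10 at 82751996 to 82752495 (positions counted from 1, build hg18). Its gaps were 32.8 Mb to the left and 11.1 Mb to the right, 43.9 Mb in sum, which was also the largest sum of all isolated peaks. The next lay on chromosome 5 at 102691271 to 102691770, with gaps of 10.8 and 15.6 Mb. These were the 2 isolated peaks with more than 10 Mb on both sides. The 2 that came after these were also on chromosome 5, at 91913608 to 91914107 (9.80 and 10.8 Mb) and at 66072857 to 66073356 (10.7 and 9.66 Mb).

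A peak on chromosome 9 at 69076155 to 69076654 had 31.0 Mb to its left and 9.08 Mb to its right. A peak on chromosome 3 at 171761143 to 171761642 had gaps of 9.0 and 11.3 Mb. The remaining 4 of the first 10 lay on chromosomes 10, 5 and 9. On chromosome 10 they were neighbours, at 14667537 to 14668036 and 22267491 to 22267990, and shared the gap of 7.60 Mb between them. On chromosome 5 the peak lay at 42304437 to 42304936, with a nearest neighbour at 7.46 Mb, and on chromosome 9 at 27339088 to 27339587, with one at 7.30 Mb. All 10 thus lay on 4 chromosomes, 3, 5, 9 and 10, whose peak densities were among the lower ones, from 0.275 to 0.356 peaks per Mb of span.

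By the sum of both gaps, 7 other peaks joined the first 10, and each stood at the edge of 1 very long gap. On chromosome 3 the gap of 34.9 Mb, the longest on the autosomes, had an isolated peak at each end, at 69965311 to 69965810 and at 104845958 to 104846457. The second of these had only 1.25 Mb on its other side. On chromosome 10 the gap of 32.8 Mb began at the peak at 49977967 to 49978466, and on chromosome 9 the gap of 31.0 Mb began at the peak at 38036612 to 38037111. On chromosome 1 the peaks at 120839569 to 120840068 and at 143240947 to 143241446 faced each other across 22.4 Mb. On chromosome 7 the peak at 126364413 to 126364912 had 20.9 Mb to its left and 2.90 Mb to its right.

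Long gaps of this kind can hold unassembled sequence such as a centromere, in which no peak can be mapped. Which ones do was not tested, since a map of unassembled sequence was not used here. The longest gap of each of the 22 autosomes had an isolated peak at both ends on 11 chromosomes, at 1 end on 7 and at neither end on 4 (chromosomes 4, 11, 19 and 21). With all peaks beside these longest gaps left out of the count, 272 isolated peaks were left of 1356 (20.1%), against 301 of 1399 (21.5%). So few peaks were left out that the share could not have moved far. The longest gap of a chromosome need not hold unassembled sequence, so this count does not address that question.

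At the limit, the 5 peaks just inside had their nearest neighbour at 1003 to 1017 kb. On chromosome 3, 2 of these were neighbours of each other, at 155428927 to 155429426 and 156432152 to 156432651, with 1003 kb between them. Another pair lay on chromosome 21, at 39415737 to 39416236 and 40433416 to 40433915, with 1017 kb between them; these were the only isolated peaks of that chromosome. The fifth lay on chromosome 1 at 13668256 to 13668755. The 5 peaks just outside had their nearest neighbour at 977 to 991 kb. They were a pair on chromosome 13, at 59072308 to 59072807 and 60063450 to 60063949, and 1 peak each on chromosome 4 (48984749 to 48985248), chromosome 1 (209872091 to 209872590) and chromosome 12 (45432475 to 45432974). One of the pair on chromosome 13 had 18.8 Mb on its other side, so a peak could miss the limit and still border a long empty stretch. In all, 28 isolated peaks had their nearest neighbour within 1100 kb, and 22 peaks missed the limit with one beyond 900 kb.

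Every autosome carried isolated peaks, from 2 on chromosome 21 to 34 on chromosome 2. As a share of the peaks with 2 neighbours, chromosome 5 was highest, with 24 of 47 (51.1%), against 21.5% over all autosomes. Chromosomes 17 (10 of 25, 40.0%), 10 (14 of 36, 38.9%) and 22 (3 of 9, 33.3%) followed. The lowest shares were 10% on chromosome 19 (5 of 50) and on chromosome 21 (2 of 20), and 10.9% on chromosome 4 (20 of 183). Chromosome 5 thus held 3.4% of the autosomal peaks and 7.97% of the isolated ones, and chromosome 4 held 12.8% and 6.64%.

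These shares followed how dense the peaks were. Across the 22 autosomes Spearman's rho between peaks per Mb and the share of isolated peaks was -0.83; both measures come from the same positions, so part of this follows from the rule. The number of isolated peaks per Mb varied less than the share. It was 0.111 per Mb over all autosomes and ran from 0.0561 on chromosome 21 to 0.159 on chromosome 16. Its rho with peak density was 0.15. This number too is built from the gaps that the rule used, so a weak relation to density can follow from the rule. Chromosome 5, at 2.37 times the overall share, had 1.21 times the overall number per Mb. Chromosome 17 went from 1.86 to 1.17 times and chromosome 19 from 0.465 to 0.727 times. Chromosome 10 went from 1.81 to 0.938 times and chromosome 4 from 0.508 to 0.944 times, so that with 0.973 peaks per Mb, the highest density of the autosomes, chromosome 4 carried isolated peaks at nearly the overall rate. Chromosome 21 was low by both measures, at 0.465 and 0.503 times. No interval is given for these ratios, since neighbouring gaps are not independent.

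**Figure D2:**
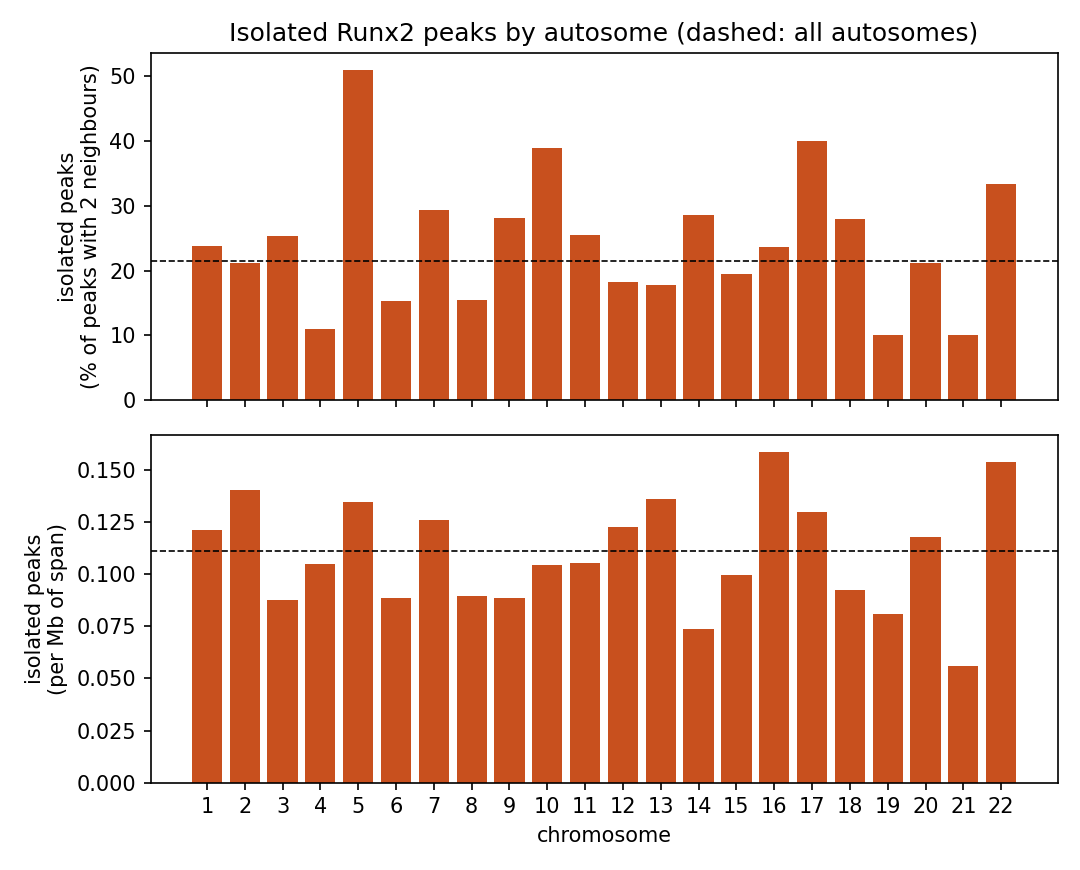
Isolated peaks on each autosome as a percent of the peaks with 2 neighbours (upper panel) and per Mb of the span from first to last peak (lower panel); dashed lines give all autosomes together, 21.5% and 0.111 per Mb. Chromosome 5 stands highest in the upper panel at 51.1%, and chromosome 16 in the lower at 0.159.

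On each chromosome the isolated peak with the most distant nearest neighbour varied in how far it stood off. This distance was 1.02 Mb on chromosome 21, 2.32 Mb on chromosome 4 (183465741 to 183466240), 3.16 Mb on chromosome 20 (19897138 to 19897637), 3.17 Mb on chromosome 19 (43396252 to 43396751) and 3.23 Mb on chromosome 15 (43913188 to 43913687). On the other 17 autosomes it was 4.13 Mb or more. Among these were peaks on chromosome 2 at 37759917 to 37760416 (6.73 and 7.07 Mb) and on chromosome 7 at 57931806 to 57932305 (6.88 and 6.68 Mb), each nearly centred in its empty stretch. On chromosome 8 the peak lay at 59425370 to 59425869 (6.85 and 9.43 Mb), on chromosome 11 at 84254738 to 84255237 (6.80 and 9.26 Mb), on chromosome 17 at 52804486 to 52804985 (6.44 and 16.0 Mb) and on chromosome 18 at 57458830 to 57459329 (6.87 and 12.1 Mb). On chromosome 4, with 20 isolated peaks, none was therefore farther than 2.32 Mb from its nearest neighbour, while 10.8 Mb was reached on chromosome 5.

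Isolated peaks often followed one another. Read along the chromosomes they formed 135 runs of consecutive isolated peaks, of which 65 were single peaks and 70 held 2 or more. Runs of 3 or more numbered 39 and held 174 isolated peaks (57.8%). Of the 602 neighbours of isolated peaks, counted once per side, 332 (55.1%) were isolated themselves. A neighbour of an isolated peak already has a gap above 1 Mb on the facing side and so meets the rule on 1 of its sides. The matching base is therefore every peak with 2 neighbours that faces such a gap. Of these, 55.2% were isolated where the peak across the gap was isolated (332 of 601) and 49.7% where it was not (269 of 541). Both shares come from the gaps that the rule used, so they do not show how much of the chaining follows from the rule.

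The longest runs lay on chromosomes 5 and 17 and were picked out after their lengths were seen. On chromosome 5, 11 consecutive isolated peaks lay between 8621858 and 66073356, and another 10 lay between 82108659 and 149015075. Only 3 peaks separated these runs, at 75736250 to 75736749, 75789581 to 75790080 and 76398293 to 76398792, within 663 kb. The whole stretch, from 1920668 to 150716717 (the facing edges of the peaks that bound it), measured 149 Mb and held 24 peaks, of which 21 were isolated. The other 25 peaks of the chromosome, 3 of them isolated, lay outside it.

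On chromosome 17 a run of 10 lay between 19378491 and 72840266, with gaps inside it of 1.08 to 16.0 Mb, and it held all isolated peaks of that chromosome. Runs of 7 and 6 lay on chromosome 9 (16020475 to 69076654) and chromosome 10 (49977967 to 100005004). On chromosome 4, by contrast, a run of 6 isolated peaks fitted between 10463786 and 19883625, a span of 9.42 Mb. The same number of isolated peaks in a row thus spanned 50.0 Mb on chromosome 10 and 9.42 Mb on chromosome 4. The other runs of 6 lay between these, with 23.8 Mb on chromosome 2 and 14.7 Mb on chromosome 16. Chromosome 19 had no 2 isolated peaks in a row.

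Only gaps above 1 Mb can border an isolated peak. There were 1421 gaps between autosomal peaks, which summed to 2702 Mb. Of these, 586 were above 1 Mb, 41.2% of the number and 90.7% of the summed length (2450 Mb). An isolated peak stood at 1 or both ends of 436 gaps, 30.7% of the number and 70.4% of the summed length (1903 Mb). Gaps with an isolated peak at both ends numbered 166 and summed to 898 Mb. The other 150 gaps above 1 Mb, 547 Mb in sum, had an isolated peak at neither end: there, each bordering peak had another within 1 Mb on its other side or was the first or last of its chromosome.

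Isolated peaks were a smaller share of the peaks near the ends of the spans than inside them. The span of each chromosome, from first to last peak, was divided into 10 equal parts. In the first and last part together 56 of 487 peaks (11.5%) were isolated, against 245 of 912 (26.9%) in the 8 inner parts. The first part stood at 11.3% and the last at 11.6%, and the inner ones between 19.7% and 32.2%. The number of isolated peaks differed less, with 27 and 29 in the outer parts and 19 to 38 in the inner ones. The outer parts held 19.2% and 20% of the other peaks and 8.97% and 9.63% of the isolated ones. Peaks were denser there, with 238 and 249 peaks with 2 neighbours against 85 to 153 in each inner part. A lower isolated share there can follow in part from the rule.

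The outer share was below the inner share on 19 of 22 chromosomes. On chromosome 5 it was 25% against 78.3%, on chromosome 13 2.27% against 41.4% and on chromosome 8 0% (0 of 31 peaks) against 24.5%. The exceptions were chromosome 4 (11.5% against 10.7%), chromosome 9 (42.9% of 7 peaks against 25%) and chromosome 19 (18.2% against 7.69%). Some of the 19 also had few outer peaks, such as chromosome 22 (0 of 3 isolated), chromosome 14 (0 of 6) and chromosome 21 (0 of 7).

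**Figure D3:**
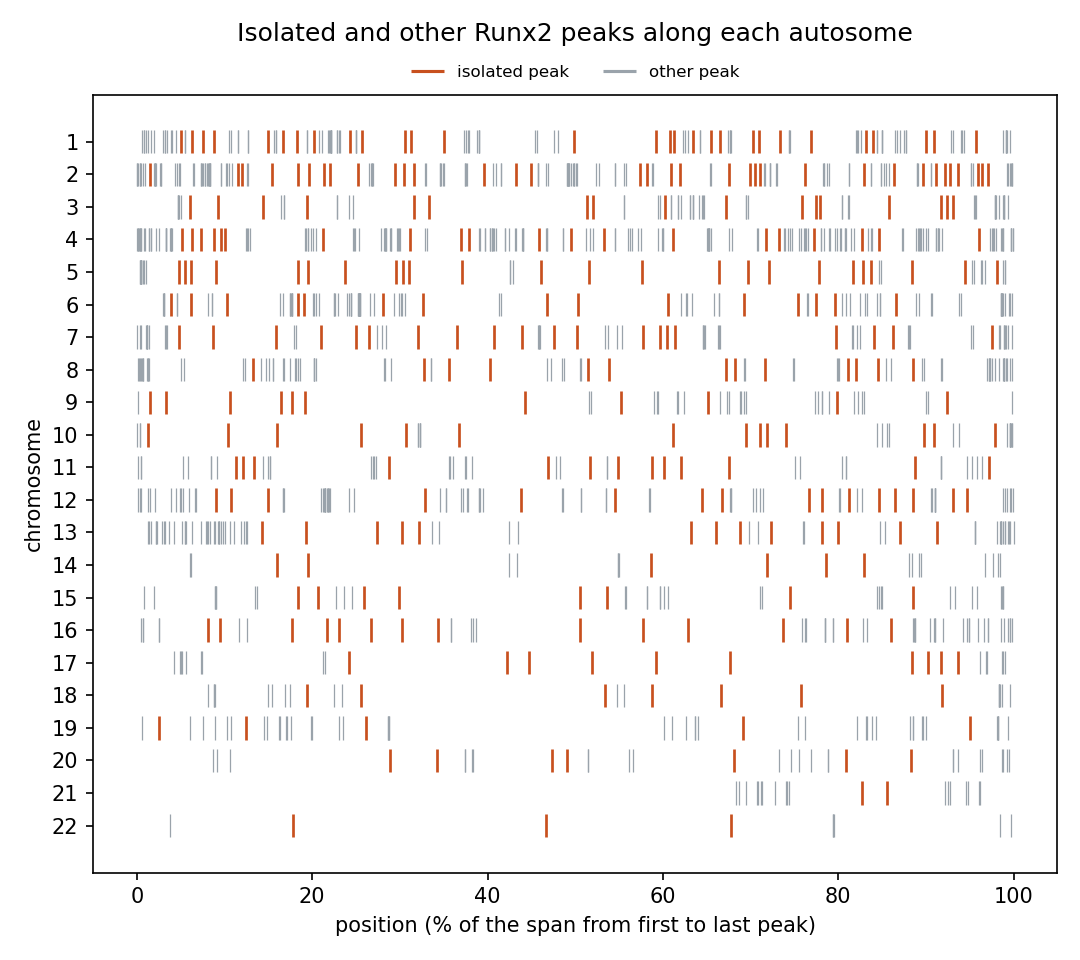
Position of each peak with 2 neighbours as a percent of the span from the first to the last peak of its chromosome, 1 row per autosome, with isolated peaks in orange and other peaks in grey. Grey marks crowd at both ends of most rows, where 11.3% and 11.6% of peaks were isolated, and chromosome 5 is mostly orange between its ends.

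Pooled over the autosomes, fewer peaks lay 1 to 5 Mb from isolated peaks than from the other peaks. By the rule each of the other peaks had a neighbour within 1 Mb, so part of this can follow from the rule. For each peak over 5 Mb inside the span, the other peaks with a gap above 1 and up to 5 Mb were counted on both sides. Isolated peaks had a median of 3 (quartiles 2 and 5, n = 289 peaks) and a mean of 3.76. The other peaks had a median of 5 (quartiles 2 and 8, n = 827 peaks) and a mean of 5.68. The quartile ranges overlapped. No peak at all lay in this window for 39 isolated peaks (13.5%) and for 33 other peaks (3.99%). For an isolated peak this only means a nearest neighbour over 5 Mb away, and the rule used that gap. The other peaks all have a neighbour within 1 Mb, so these shares are not like for like. In the same window, 10 or more peaks lay for 17 isolated peaks (5.88%) and 155 other peaks (18.7%).

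Part of this difference lay between chromosomes. With each chromosome weighted by its number of isolated peaks, the mean for other peaks was 4.97, against 3.76 for isolated ones. Chromosome 13 had the widest difference, 4.0 against 14.0, and without it the weighted mean for other peaks was 4.55, against 3.75. The mean was lower for isolated peaks on 14 chromosomes and higher on 7 (chromosomes 10, 11, 14, 15, 19, 20 and 21), and chromosome 22 had no other peak to compare. By distance, other peaks lay around isolated peaks at 0.422 to 0.498 per Mb in each band of 1 Mb from 1 to 10 Mb. Around the other peaks the density was 0.705 per Mb from 1 to 2 Mb, 0.558 to 0.714 per Mb in the bands from 2 to 9 Mb and 0.495 per Mb from 9 to 10 Mb. It was higher than around isolated peaks in each of these bands, by the least in the last one. These band values pooled the peaks over 10 Mb inside the span, with chromosomes not weighted.

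**Figure D4:**
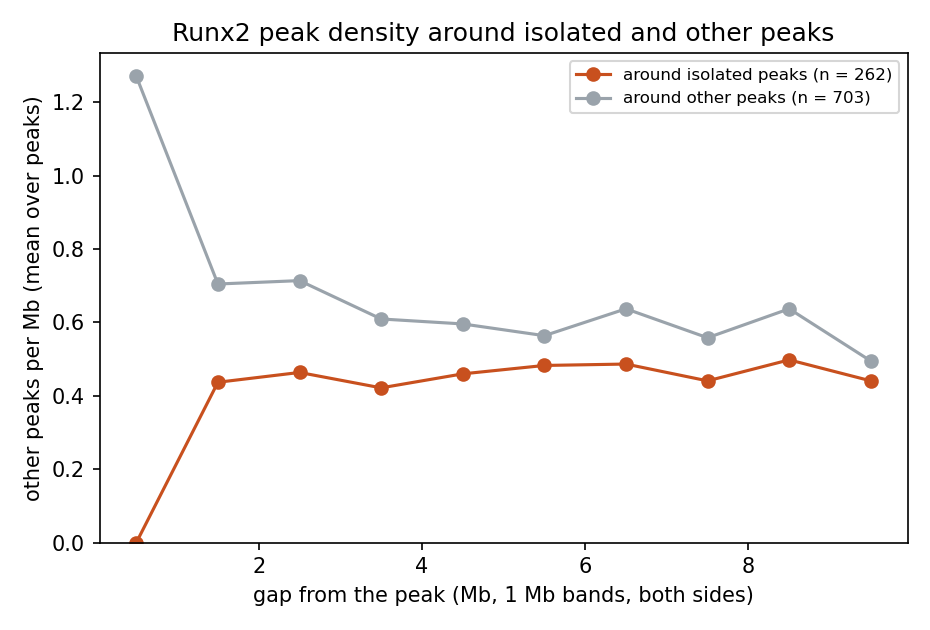
Mean number of other peaks per Mb in bands of 1 Mb of gap, both sides together, around 262 isolated and 703 other peaks that lay over 10 Mb inside the span. Chromosomes were pooled and not weighted. The first band is 0 around isolated peaks by the rule; from 1 to 2 Mb the values are 0.437 and 0.705, from 8 to 9 Mb 0.498 and 0.637, and from 9 to 10 Mb 0.441 and 0.495.

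Some isolated peaks had many others between 1 and 5 Mb away. The isolated peak with the most peaks in the window was that at 39415737 to 39416236 on chromosome 21, with 17. It was followed by 1 on chromosome 6 at 48611130 to 48611629, with 16, and by peaks on chromosome 4 at 147483786 to 147484285 and chromosome 19 at 8422772 to 8423271, with 14 each. That on chromosome 6 at 32162377 to 32162876 had 13. Their nearer gaps were 1.02 to 1.75 Mb and their farther gaps 1.25 to 2.99 Mb. The nearest neighbour of that on chromosome 21 was itself isolated. These 5 were picked by this count.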

How the data were processed

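Positions came from the authors' deposited peak list, on build hg18 per the submitters' processing notes. Libraries were made with Illumina's recommended steps, per the labels' protocols. How reads were aligned, which caller and threshold were used and whether the input entered peak calling is not given in the sources used here. Every peak has a deposited score of 0. The input library itself was not analysed here, and read depth is unknown. Members and named regions were chosen with earlier results of these data known. Starts, counted from 0 in the list, are printed counted from 1. Named regions were the 10 isolated peaks farthest from their nearest neighbour, the 10 with the largest sum of gaps, 5 on each side of the limit and the farthest of each autosome (given where it adds to these); others were picked after their values were seen. The rule was tested on simulated lists. Planned comparisons of a RUNX motif and of transcription starts were not run, since they need an hg18 genome or annotation. Alternatives were other limits, merged peaks, end peaks kept, X included, chromosomes left out and distances between centres. Computation used Python 3.11.15, numpy 2.4.6, pandas 2.3.3, scipy 1.17.1 and matplotlib 3.10.9.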

Additional observations from a re-analysis of the deposited data

How the results depend on the processing

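The number of isolated peaks followed the limit by construction. A limit of 500 kb gave 485 peaks (34.7%), and 2 Mb gave 145 (10.4%). Merging peaks within 10 kb gave 308, keeping first and last peaks 316 and adding X 314. Of 3 alternatives chosen after seeing the data, merging within 100 kb gave 341 peaks (30.2% of fewer, merged peaks), leaving out peaks beside the longest gaps gave 272, and leaving out chromosome 5 gave 277. Counted per Mb of span, the ratio to all autosomes moved from 2.37 to 1.21 on chromosome 5, from 1.86 to 1.17 on chromosome 17, from 1.81 to 0.938 on chromosome 10, from 0.465 to 0.727 on chromosome 19 and from 0.508 to 0.944 on chromosome 4. Between centres, the median distance to the nearest neighbour was again 1.93 Mb. Planned motif and transcription start alternatives were not run. No paired analysis was possible because the values come from 1 library and no test. Depth is unknown, so how many gaps more reads would fill cannot be judged.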

Other observations

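X lay outside the rule. By the same limit, 13 of its 157 peaks with 2 neighbours were isolated (8.28%), below the lowest autosomal share of 10%. Their nearest neighbours lay 1.07 to 4.73 Mb away, with a median of 1.47 Mb. The farthest was the peak at 75965143 to 75965642, with gaps of 4.73 and 9.50 Mb. The difference from the autosomes was not tested. Peak density on X was not measured, though across the autosomes the share fell as density rose.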
